A study of Rattus norvegicus with 3 samples.

Results

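The genes described here are the rat zinc finger protein genes, taken as the rows whose symbol is Zfp or Znf followed by a number, without Zfp36. A row was included when it reached a CPM (the count scaled to the library total) of 1 in at least 1 of 3 retinal libraries, so the members were selected on their measured level, and that level is given as a description only. Of 32883 rows in all, 237 fitted the symbol and 217 reached the limit. Of these 217 members, 212 were named Zfp and 5 Znf. They carried 216 distinct symbols, because Zfp9 stood on 2 member rows.

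The libraries hold retinal RNA of Sprague-Dawley rats at postnatal day 60, depleted of ribosomal RNA, with 1 library for each of 3 groups. CTL is labelled as retina that had no treatment, whereas the protocol speaks of sham surgery with a needle in the anterior chamber at 2.66 kPa. HIOP (high intraocular pressure) is retina from eyes pressurised to 110 mmHg during 60 min and collected after 12 h of survival, a model of ischemia followed by reperfusion. HIOP_GSK had the same injury after a drug called only GSK had been put into the anterior chamber 24 h ahead of it. The labels describe no library with injection of vehicle alone, no library of the drug without injury, and no number of animals per library. Since each group is 1 library, differences cannot be checked on replicates, no p-value is given, and the spread between animals is unknown. Counts are printed as deposited, and ratios take library size into account.

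Zinc finger proteins of this naming series mostly carry tandem fingers of the Cys2-His2 type, each a short fold held by a zinc ion that can contact a few bases of DNA. Many also carry a KRAB domain, which recruits the co-repressor Trim28 and through it histone methylation and heterochromatin, often at transposable elements. Others bind promoters, RNA or ribosomal particles, and some are known for roles in the developing nervous system and eye. The symbol alone does not say which of these a member is.

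Counts totalled 16090064 in CTL, 17221510 in HIOP and 15132754 in HIOP_GSK, and 15543 genes reached the same limit of 1 CPM and formed the background. Rod genes were abundant in each library (9 rows summing to 28891, 27344 and 19840 CPM in CTL, HIOP and HIOP_GSK), as the retina label requires. Genes of other tissues and cell types differed between the libraries, with 12 lens genes at 303, 1102 and 7127 CPM and 8 neutrophil and monocyte genes at 1.24, 142 and 157 CPM. In such bulk RNA, fewer cells of a type and less RNA per cell cannot be told apart.

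Zinc finger genes were broadly expressed in the retina at moderate levels. Together the members took 1.04% of counts in CTL, 1.03% in HIOP and 0.987% in HIOP_GSK. The median over members of the mean level was 22.8 CPM, against 23.1 CPM over all 15543 genes, so the medians were close. Low levels were rarer among the members, of which 204 of 217 reached 5 CPM in at least 1 library, where 12616 of 15543 genes did. On the deposited TPM scale, which accounts for transcript length, the same medians were 12.3 and 12.1. Of the members, 211 reached 1 CPM in every library and 193 had at least 100 counts in each. Mean TPM was at least 50 for 13 members and under 5 for 35.

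The highest mean TPM belonged to Zfp207, a spindle assembly protein also called BuGZ, at 132, 121 and 116 TPM in CTL, HIOP and HIOP_GSK. Zfp106, an RNA-binding protein, followed at 129, 97.8 and 89.8 TPM, and was highest in CTL. Zfp516, a protein of CtBP and LSD1 co-repressor complexes, stood at 60, 97.5 and 90.1 TPM, and here CTL was the lowest library. Next in order came Zfp444 (75.5, 68 and 65.4 TPM), Zfp91, a ubiquitin ligase (68.3, 65.5 and 73.3), Zfp706 (73.1, 60.3 and 66.1), the RNA-binding Zfp638 (73.6, 59.4 and 58.5), the GC-box binding Zfp148 (56.7, 68.4 and 62.7), Zfp266 (64.4, 62 and 57.5) and Zfp326 (65.2, 52.1 and 54.5). The ranges of neighbours in this order overlapped, so the order among them is not fixed by these values.

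At the other end, the members just inside the limit were Zfp7, Zfp575 and Zfp541. Zfp7 had 8, 20 and 14 counts, Zfp575 had 21, 16 and 25, and Zfp541 had 27, 27 and 14. Just outside lay Zfp296 with 4, 5 and 9 counts, Zfp831 with 4, 8 and 1, and a further Zfp82 row with 5, 1 and 0. Of the 6 members that did not reach 1 CPM in every library, Zfp7 entered through HIOP alone (0.497, 1.17 and 0.92 CPM in CTL, HIOP and HIOP_GSK) and Znf750 through CTL alone (1.8, 0.234 and 0.394 CPM). Each passed the limit only in the library where it was highest, so a difference between libraries was built into their selection. The 20 rows below the limit included 11 without a count in any library, such as Zfp420, Zfp697 and the ribosome biogenesis factor Zfp622, listed at 0 in all 3. Closely related zinc finger genes share sequence, and 4 symbols stood on several rows (Zfp9, Zfp82, Zfp84 and Zfp260), so the split of reads among relatives is uncertain for them.

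HIOP was set against CTL to describe these genes 12 h after ischemia. Few members differed by much. With a call at 2-fold on log2 CPM with a prior count of 2, 4 of 217 members were higher in HIOP (1.84%, where 9% of all 15543 genes were) and 6 were lower (2.76%, against 8.04%), so 10 were called in either direction (4.61%, against 17%). The median log2 ratio of the members was -0.02, beside 0.00 over all genes. Their interquartile range was 0.37 and that of all genes 0.74, and 86.2% of members lay within 0.5 log2 units of 0, against 60.4% of all genes. The calls include Zfp7 and Znf750, which had entered only through the library where each was highest. Among rows with at least 5 CPM in at least 1 library, which leave both out, 6 of 204 members were called (2.94%) and 14% of all such genes.

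**Figure D1:**
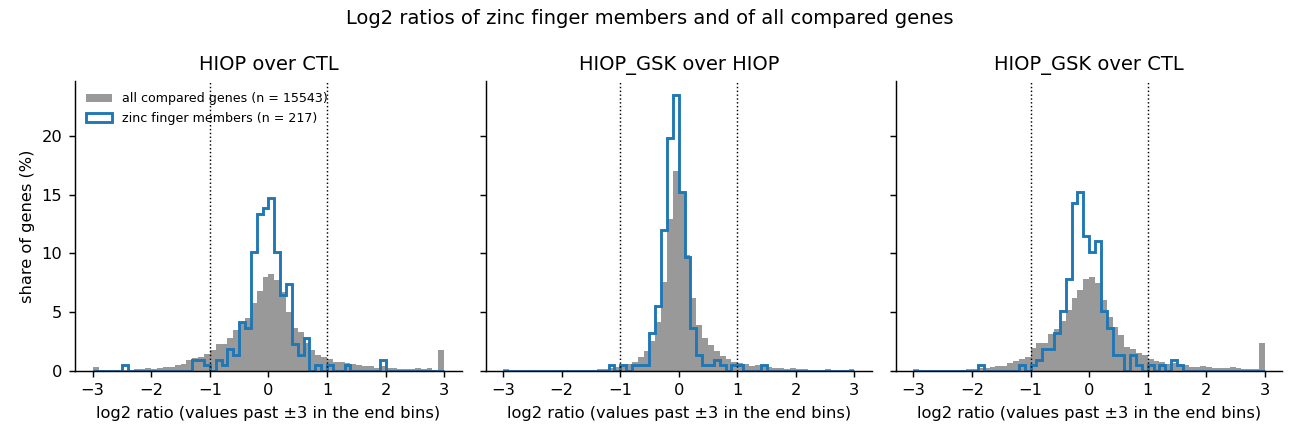
Distribution of log2 ratios for the 217 zinc finger members (blue outline) and all 15543 compared genes (grey), as a share of genes in percent on the vertical axis, in HIOP over CTL, HIOP_GSK over HIOP and HIOP_GSK over CTL. Dotted lines mark 2-fold, and values past the axis are in the end bins; the members' distribution is narrower than the grey one in each panel, with an interquartile range of 0.37 against 0.74 in HIOP over CTL.

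Zfp593, whose human counterpart takes part in assembly of the large ribosomal subunit, had 80 counts in CTL, 335 in HIOP and 221 in HIOP_GSK. Both injured libraries were above CTL, and the ratio of HIOP to CTL was 3.94 (95% interval 3.08 to 5.09). This ratio is of scaled counts, and its exact Clopper-Pearson interval covers counting error only. Zfp217, which acts with CtBP and LSD1 in transcriptional repression, had 133, 542 and 340 counts, with a ratio of 3.83 (3.16 to 4.67). Again HIOP was the highest library and HIOP_GSK lay between the others. Zfp455 had 106, 296 and 248 counts, with a ratio of 2.63 (2.1 to 3.31), and its injured libraries were close to each other. The fourth call, Zfp7, rests on 8, 20 and 14 counts, and its interval for HIOP over CTL (0.992 to 6.17) includes 1. Since Zfp7 had entered through HIOP alone, its call supports nothing beyond its own values.

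In TPM, Zfp593 stood at 3.36, 13.9 and 9.84, Zfp217 at 3.17, 11.3 and 8.28, and Zfp455 at 3.73, 9.53 and 8.61, so these 3 were past 2-fold on that scale too. The summed neutrophil and monocyte markers were also higher in HIOP, at 142 CPM (none at 0) against 1.24 in CTL (5 of 8 rows at 0). In HIOP_GSK these markers summed to 157 CPM, with Csf3r alone at 21 CPM in HIOP and 61.3 in HIOP_GSK. Of the 7 marker rows that reached 1 CPM, 3 lay above 0 and 4 below in HIOP_GSK over HIOP, with a median log2 ratio of -0.23. Zfp593 and Zfp217 were lower in HIOP_GSK than in HIOP. The part of the markers in these differences was not tested.

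Below the 2-fold limit, the widest set of counts was that of Zfp516, with 2824, 5346 and 4367. Its ratio of HIOP to CTL was 1.78 (1.7 to 1.86), and both injured libraries lay above CTL. Zfp84 had 1284, 2204 and 1432 counts (ratio 1.61, 1.51 to 1.73), so that HIOP was highest and HIOP_GSK lay nearer to CTL. Zfp598, the ubiquitin ligase that marks collided ribosomes, had 956, 1574 and 1267 counts (ratio 1.55, 1.43 to 1.68). Zfp496 had 501, 828 and 654 counts (1.55, 1.39 to 1.74), Zfp281, a GC-box binding factor, had 1230, 1842 and 1344 (1.41, 1.31 to 1.51), and Zfp275 had 415, 661 and 511 (1.5, 1.32 to 1.7). In each of these, HIOP was the highest library. For Zfp655 the scales disagreed, with 178, 307 and 298 counts but 1.05, 1.03 and 1.16 TPM.

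Among the members lower in HIOP, Znf750, a regulator of epidermal differentiation, had 29 counts in CTL, 4 in HIOP and 6 in HIOP_GSK. It was 7.71-fold lower in HIOP, with a wide interval (2.71 to 30.2), and since it had entered through CTL alone, its call supports nothing beyond its own values. Zfp185, a LIM domain protein of the actin cytoskeleton, had 30, 13 and 34 counts and was 2.45-fold lower in HIOP (1.24 to 5.13), while HIOP_GSK was near CTL. The 7 measured markers of the corneal and surface epithelium summed to 283 CPM in CTL, 23.9 in HIOP and 78.2 in HIOP_GSK, and the corneal matrix gene Kera was at 0 in HIOP. Of these markers, 5 of 7 were at least 2-fold lower in HIOP, and their part in the values of Znf750 and Zfp185 was not tested.

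Zfp488, known from oligodendrocyte differentiation, had 271, 118 and 111 counts and was 2.44-fold lower in HIOP (1.96 to 3.06). Zfp467, which acts in the choice between fat and bone cell fate, had 409, 183 and 213 counts and was 2.38-fold lower (1.99 to 2.85). Zfp423, a partner of EBF and SMAD factors in neural development, had 689, 353 and 343 counts and was 2.08-fold lower (1.82 to 2.37). In these 3 genes both injured libraries lay below CTL. The injured libraries were near each other for Zfp488 and Zfp423, while Zfp467 was higher in HIOP_GSK than in HIOP (ratio 1.31, 1.07 to 1.6). Zfp791 completed the calls with 52, 24 and 34 counts, 2.3-fold lower in HIOP (1.4 to 3.91). The 3 calls of Znf750, Zfp185 and Zfp791 came from genes under 5 CPM, where few counts carry the ratio.

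Short of 2-fold, Zfp300 had 177, 101 and 111 counts and was 1.86-fold lower in HIOP (1.45 to 2.4). Zfp40 had 511, 307 and 284 counts (1.77-fold lower, 1.53 to 2.05), and Zfp536, a repressor of neuronal differentiation, had 1444, 951 and 876 (1.61-fold lower, 1.49 to 1.75). Zfp483 had 573, 387 and 387 counts (1.57-fold lower, 1.38 to 1.8). Both injured libraries were below CTL for each of them.

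**Figure D2:**
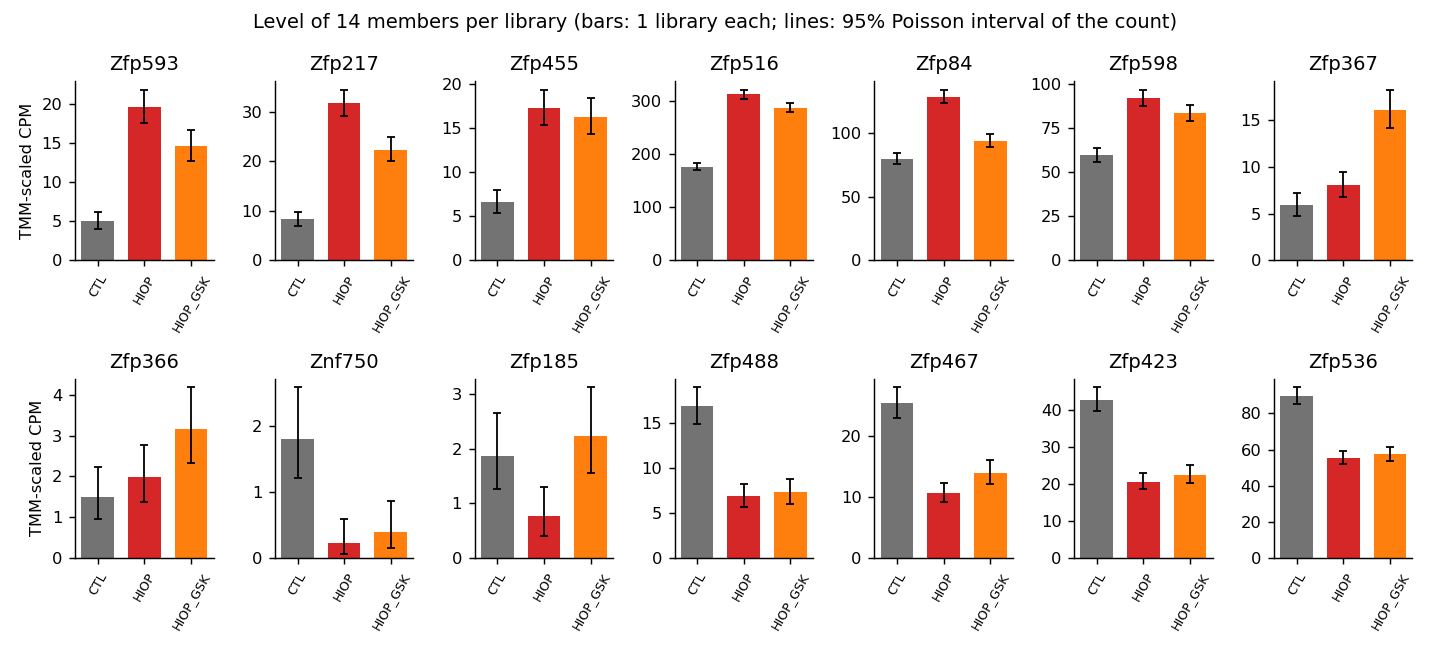
Level of 14 members in CTL, HIOP and HIOP_GSK, as TMM-scaled CPM on a linear axis from 0 with its own range in each panel; bars are single libraries and lines are 95% Poisson intervals of the count. Zfp593, Zfp217 and Zfp455 are higher in both injured libraries than in CTL, Zfp488, Zfp467, Zfp423 and Zfp536 are lower in both, and Zfp367 is highest in HIOP_GSK.

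Counting noise alone was exceeded more often than the fold limit. The 95% interval left out a ratio of 1 for 110 of 217 members in HIOP over CTL (50.7%, against 64.5% of all genes), which says that 2 libraries of this depth differ, not that the conditions do. Only 6 of the 10 calls had at least 5 CPM in a library, and of the calls on counts, Zfp7, Zfp185 and Zfp791 were not past 2-fold on the TPM scale with a pseudocount of 0.5.

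**Figure D3:**
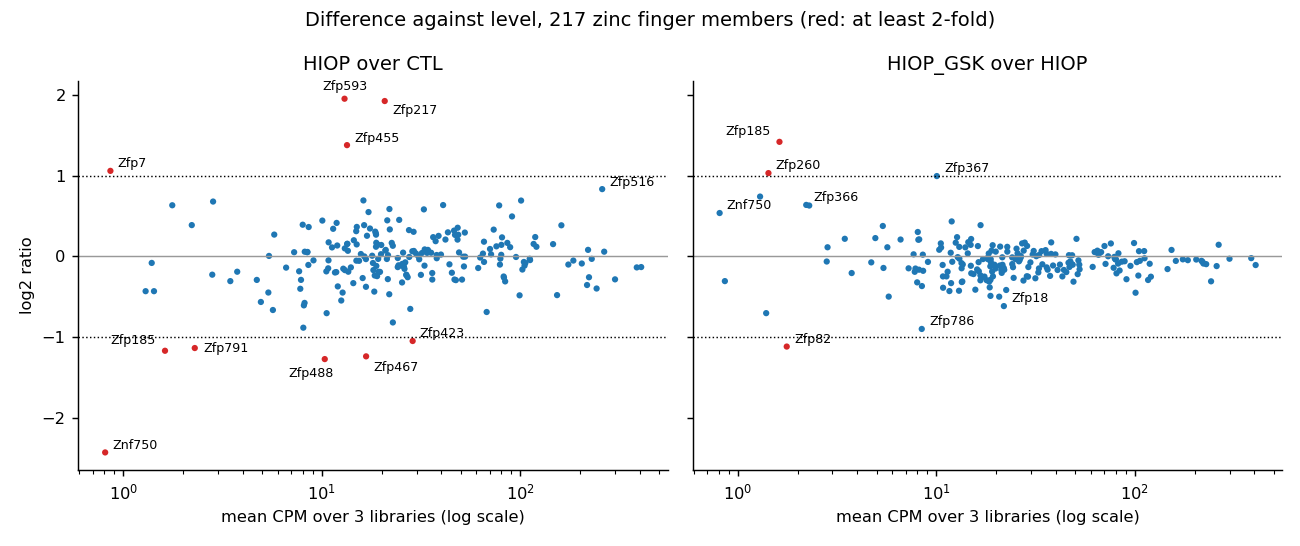
Log2 ratio of each of the 217 members against its mean CPM over 3 libraries (log axis), for HIOP over CTL and HIOP_GSK over HIOP, with members past 2-fold in red and dotted lines at 2-fold. In HIOP over CTL, Zfp593, Zfp217 and Zfp455 stand above and Zfp488, Zfp467 and Zfp423 below at levels over 5 CPM, whereas in HIOP_GSK over HIOP the points past 2-fold (Zfp185, Zfp260 and Zfp82) all lie under 5 CPM.

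Start-site sequences are shown for the members that carried these differences, since a reader may wish to see what they do and do not share. They come from RefSeq (build GRCr8), which gave a gene for 209 of 217 members and a 300-base window, from 250 bases before to 50 after the start, for 179. In a list of 10 short motifs chosen with the values known, searched on both strands, capitals mark each match. The motifs were AP-1 (TGANTCA), STAT (TTCNNNGAA), NF-kappa B (GGGANTTTC), ETS (CCGGAAG), E2F (TTTGGCGC), E-box (CACGTG), CRE (TGACGTCA), SP (GGGGCGGGG), ZNF143 (ACTACAA) and NRF1 (TGCGCATG). The windows, printed 5′ to 3′ along the gene, lie at chr5:151748675-151748974 on the minus strand for Zfp593, at chr3:179321644-179321943 on the minus strand for Zfp217, at chr2:86426714-86427013 on the plus strand for Zfp455 and at chr16:9299879-9300178 on the minus strand for Zfp488.
Zfp593: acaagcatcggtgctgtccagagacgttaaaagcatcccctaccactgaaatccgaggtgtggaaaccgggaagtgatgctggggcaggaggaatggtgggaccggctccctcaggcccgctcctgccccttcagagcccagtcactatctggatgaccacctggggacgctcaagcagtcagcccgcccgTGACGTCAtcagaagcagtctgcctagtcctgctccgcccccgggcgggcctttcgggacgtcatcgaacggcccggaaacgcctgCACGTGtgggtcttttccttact
Zfp217: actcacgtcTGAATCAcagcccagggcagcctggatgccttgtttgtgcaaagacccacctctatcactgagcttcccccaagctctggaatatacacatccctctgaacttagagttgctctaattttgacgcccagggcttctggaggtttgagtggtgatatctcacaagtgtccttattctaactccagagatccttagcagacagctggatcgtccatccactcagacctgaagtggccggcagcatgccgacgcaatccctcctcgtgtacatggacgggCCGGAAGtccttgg
Zfp455: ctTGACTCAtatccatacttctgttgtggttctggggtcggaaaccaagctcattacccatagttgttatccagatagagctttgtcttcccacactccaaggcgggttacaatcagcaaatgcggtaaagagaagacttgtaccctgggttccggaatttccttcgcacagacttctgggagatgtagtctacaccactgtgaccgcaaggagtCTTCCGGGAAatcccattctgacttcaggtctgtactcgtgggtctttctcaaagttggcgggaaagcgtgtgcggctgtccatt
Zfp488: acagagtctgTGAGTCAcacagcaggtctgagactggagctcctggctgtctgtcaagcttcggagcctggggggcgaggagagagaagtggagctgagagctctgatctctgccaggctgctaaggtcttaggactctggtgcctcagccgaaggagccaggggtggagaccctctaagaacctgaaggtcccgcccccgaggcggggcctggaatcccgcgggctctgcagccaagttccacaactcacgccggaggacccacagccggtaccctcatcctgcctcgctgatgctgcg

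The window of Zfp593 holds a CRE and an E-box match, that of Zfp217 an AP-1 and an ETS match, and that of Zfp488 an AP-1 match. In the Zfp217 window, the 50 bases after the listed start open with atg and hold the ETS match. Whether that start is one of transcription or of translation was not checked, so this match may lie in coding sequence. The window of Zfp455 holds an AP-1 match and, further along, a STAT match that overlaps an ETS match, printed as 1 run of capitals. Among the windows printed above, the AP-1 string was in those of Zfp217 and Zfp455, higher in HIOP, and of Zfp488, lower in HIOP. Any part of AP-1 in their values was not tested. Across the 179 member windows, AP-1 was present in 5.59%, against 7.33% of all 27457 windows, and STAT in 11.2%, against 8.68%. ETS was in 20.1% of member windows and 9.22% of all, ZNF143 in 8.38% and 3.4%, NRF1 in 6.7% and 2.15%, and E2F in 1.68% and 0.521%. Few windows carry the last shares, as NRF1 was found in 12 of the 179 member windows and E2F in only 3. The remaining shares were 15.6% and 10.4% for SP, 8.38% and 6.65% for the E-box, 2.79% and 1.91% for CRE, and 1.12% and 1.13% for NF-kappa B.

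Member windows were richer in G and C than the whole table, with a median of 58.3% against 52.3%, and held a median of 18 CpG pairs against 7. Against the 10492 windows of other genes that reached 1 CPM here, which had medians of 60.7% and 20, members were slightly poorer in both. On that background ETS was found in 16%, ZNF143 in 3.95%, NRF1 in 3.35%, E2F in 0.877% and STAT in 6.4% of windows, below the members' shares in each case. AP-1 was found in 5.04%, the E-box in 9.09%, CRE in 3.03%, SP in 19.9% and NF-kappa B in 1.23%, so that for AP-1, the E-box, CRE and SP the order of members and background turned with the background chosen. A match is a description of the letters and not a bound site, and no match says only that these letters are not in this window.

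The HIOP_GSK library was set against HIOP to describe the same genes in the injured retina with the drug. Almost none differed by 2-fold. The members as a whole lay slightly lower. The medians of the smaller related zinc finger families described further below were also slightly under 0. Of 217 members, 2 passed 2-fold upward in HIOP_GSK (0.922%, against 4.56% of all genes) and 1 downward (0.461%, against 1.69%), 3 in either direction (1.38%, against 6.25%). Among rows of at least 5 CPM, 0 of 204 members were called, against 3.6% of all genes. The median log2 ratio was -0.07, beside -0.00 over all genes, and 33.6% of members lay above 0, against 49.6%. The interval left out a ratio of 1 for 67 members (30.9%, against 40.1%).

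All 3 calls were of genes with few counts. Zfp185 had 13 counts in HIOP and 34 in HIOP_GSK, a ratio of 2.94 (1.51 to 6.08). The surface epithelium markers named above were also higher, 5 of 7 by at least 2-fold. So were markers of other kinds, with 12 of 12 lens and 8 of 10 microglia and macrophage rows at least 2-fold higher, while 6 of 9 rod rows lay below 0. The part of any of these markers in the difference of Zfp185 was not tested. Zfp260 had 21, 16 and 31 counts in CTL, HIOP and HIOP_GSK (ratio 2.18, 1.16 to 4.27), and Zfp82 had 26, 44 and 17 (2.3-fold lower, 1.29 to 4.29). The highest deposited TPM of any library was 0.58 for Zfp185, 0.32 for Zfp260 and 0.19 for Zfp82, and none of them was past 2-fold on the TPM scale.

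Zfp367, whose expression follows the cell cycle, sat on the limit with a well counted difference. It had 95 counts in CTL, 138 in HIOP and 246 in HIOP_GSK, so that HIOP_GSK stood apart. The ratio of HIOP_GSK to HIOP was 2.01 (1.62 to 2.49), which the prior count brings to 0.99 on the log2 scale, just short of a call, and TPM was 2.2, 3.27 and 6.63. Its window, at chr17:970646-970945 on the plus strand, held none of the 10 strings searched, which do not cover every form of each site, and is shown because no other member over 5 CPM came as near to 2-fold upward.
Zfp367: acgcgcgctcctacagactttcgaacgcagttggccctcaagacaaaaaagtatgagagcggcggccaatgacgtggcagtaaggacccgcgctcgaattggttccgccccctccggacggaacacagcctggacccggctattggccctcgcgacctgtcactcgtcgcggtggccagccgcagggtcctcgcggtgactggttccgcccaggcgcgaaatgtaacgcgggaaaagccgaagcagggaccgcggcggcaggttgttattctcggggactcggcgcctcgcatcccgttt

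The 12 cell cycle markers summed to 66.5, 187 and 280 CPM, with medians of 2.76, 2.77 and 14.1 CPM and none at 0 in any library. In HIOP over CTL, 5 of the 12 lay above 0 and 7 below. Kif11 alone stood at 7.02, 105 and 68 CPM in CTL, HIOP and HIOP_GSK and made up most of the rise of the sum in HIOP. Between HIOP and HIOP_GSK, 10 of 12 went up by 2-fold or more, and their part in the difference of Zfp367 was not tested. Zfp366, known as DC-SCRIPT from dendritic cells, had 24, 34 and 48 counts, with a ratio of HIOP_GSK to HIOP of 1.59 (1 to 2.54). The 10 microglia and macrophage markers, again none at 0, summed to 91.1, 90.2 and 160 CPM, with 8 of 10 at least 2-fold higher in HIOP_GSK. Their part in the values of Zfp366 was not tested either. Zfp710 had 161, 188 and 226 counts (ratio 1.35, 1.11 to 1.65).

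Other members were lower with the drug by less than 2-fold. Zfp786 had 158, 174 and 82 counts and was 1.89-fold lower in HIOP_GSK than in HIOP (1.44 to 2.48), leaving HIOP_GSK below both other libraries. Zfp18 had 304, 486 and 281 counts (1.54-fold lower, 1.32 to 1.79) and Zfp84 had 1284, 2204 and 1432 (1.37-fold lower, 1.28 to 1.46). In these 2 genes HIOP was the highest library. Zfp217 was 1.42-fold lower (1.23 to 1.63) and Zfp593 1.35-fold lower (1.13 to 1.6), both still above CTL. Zfp462, a large nuclear protein of neural development, had 4934, 3978 and 2851 counts (1.24-fold lower, 1.18 to 1.3), and each library was below the one before in that order.

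HIOP_GSK was also set against CTL. It shares HIOP_GSK with one comparison above and CTL with the other, so the 3 comparisons are not independent and are given side by side only. Of 217 members, 5 passed 2-fold upward in HIOP_GSK (2.3%, against 10.4% of all genes) and 2 downward (0.922%, against 6.32%), 7 in all (3.23%, against 16.8%). The interval left out 1 for 105 members (48.4%, against 64.8%), and 5 of 204 members over 5 CPM were called (2.45%, against 13.1%). The median log2 ratio was -0.11, beside 0.00, and 36.9% of members lay above 0, against 50.1%.

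The 5 higher members were Zfp593 at 2.92-fold (2.25 to 3.82), Zfp367 at 2.74-fold (2.15 to 3.51), Zfp217 at 2.7-fold (2.21 to 3.33), Zfp455 at 2.47-fold (1.96 to 3.14) and Zfp366 at 2.12-fold (1.27 to 3.61). The 2 lower ones were Znf750 at 4.57-fold (1.86 to 13.5), which had entered through CTL alone, and Zfp488 at 2.31-fold (1.84 to 2.91). Zfp423 and Zfp467, called in HIOP over CTL, were 1.9-fold (1.67 to 2.17) and 1.82-fold lower (1.53 to 2.15) here. Zfp786 was likewise 1.82-fold lower (1.39 to 2.41) and Zfp462 1.64-fold lower (1.56 to 1.71).

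By role, the members known from neural development and eye disease were mostly lower in HIOP than in CTL. Of 15 such genes, 0 passed 2-fold upward in HIOP over CTL and 2 passed it downward (Zfp488 and Zfp423), where 9% and 8.04% of all genes did. The list had 12 of 15 members below 0, beside 7716 of all 15543 genes, and its median log2 ratio was -0.30, beside -0.02 over all members and 0.00 over all genes. Zfp365, a neuronal protein that binds DISC1, had 4131, 3432 and 2933 counts (1.28-fold lower in HIOP, 1.22 to 1.34). Zfp503, also known as Nolz1 and active in striatal development, had 356, 279 and 254 (1.36-fold lower, 1.16 to 1.59), and Zfp711, an X-linked intellectual disability gene, had 163, 113 and 116 (1.53-fold lower, 1.2 to 1.97). In these 3 genes both injured libraries lay below CTL.

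Of this list, 3 members lay above 0. Zfp703 had 169, 240 and 169 counts (ratio of HIOP to CTL 1.34, 1.09 to 1.64), Zfp24, needed for myelination, had 653, 866 and 728 (1.25, 1.13 to 1.38), and Zfp513, a retinitis pigmentosa gene, had 583, 706 and 530 (1.14, 1.02 to 1.27). Zfp644, linked to high myopia, differed little, at 2967, 2939 and 2544 counts (1.07-fold lower, 1.02 to 1.13). In HIOP_GSK over HIOP the list had a median of -0.06 and no call, where 6.25% of all genes were called. Markers of Müller glia and ganglion cells were lower in HIOP than in CTL as well, the first (7 rows) from 3828 CPM in CTL to 2167 in HIOP and 2827 in HIOP_GSK, the second (8 rows) from 596 to 270 and 294. Of these, 5 of 7 and 6 of 8 were at least 2-fold lower in HIOP, 1 of the 7 glial rows was 2-fold higher, none was at 0, and their part in the list's values was not tested. In HIOP_GSK over HIOP, 7 of 7 glial and 6 of 8 ganglion cell rows lay above 0. Of the list, 5 of 15 members did (33.3%), close to the 33.6% of all members, beside 49.6% of all genes. The part of these markers in that comparison was not tested.

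The promoter-binding and chromatin members stood somewhat higher. Of 14, 1 passed 2-fold upward in HIOP over CTL (Zfp217) and 0 downward, beside 9% and 8.04% of all genes. The list had 10 of 14 members above 0, beside 7824 of 15543 genes, and a median of 0.16. Zfp148 had 2183, 3029 and 2587 counts (ratio 1.3, 1.23 to 1.38) and Zfp410, an activator of the remodeller gene Chd4, had 654, 889 and 797 (1.28, 1.15 to 1.42). Zfp143, which binds many promoters at a motif searched above, had 881, 934 and 742 counts (0.997, 0.908 to 1.09), a ratio close to 1. Zfp532 and Zfp608 lay on the other side, with 2988, 2276 and 2136 counts (1.4-fold lower, 1.32 to 1.48) and 1901, 1445 and 1439 (1.4-fold lower, 1.31 to 1.5). In HIOP_GSK over HIOP the list had a median of -0.04 and no call, where 6.25% of all genes were called.

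Among 10 RNA, ribosome and spindle members, Zfp593 was the 1 call in HIOP over CTL, where 17% of all genes were called, and the median was -0.06. Abundant members of this list were near CTL, with Zfp207 at 3820, 3973 and 3300 counts (1.02-fold lower, 0.978 to 1.07) and Zfp638 at 6644, 6421 and 5615 (1.1-fold lower, 1.06 to 1.14). In HIOP_GSK over HIOP, 9 of 10 lay below 0, beside 144 of all 217 members and 7833 of 15543 genes. The median there was -0.11, and none was called, where 6.25% of all genes were. The 2 imprinting regulators differed little, Zfp57 with 190, 182 and 150 counts (1.11-fold lower in HIOP, 0.901 to 1.37) and Zfp445 with 1376, 1582 and 1347 (ratio 1.08, 1.01 to 1.16). Of 4 signalling members, Zfp467 was called lower in HIOP, where 8.04% of all genes were. Zfp91, with 4002, 4427 and 4343 counts, had a ratio of 1.04 (0.996 to 1.09). The 172 members in no role list had a median of -0.01 in HIOP over CTL, with 2 higher and 3 lower by at least 2-fold (9% and 8.04% of all genes). These lists are short and were drawn up with earlier results of these libraries known, so they are not independent evidence of a direction.

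**Figure D4:**
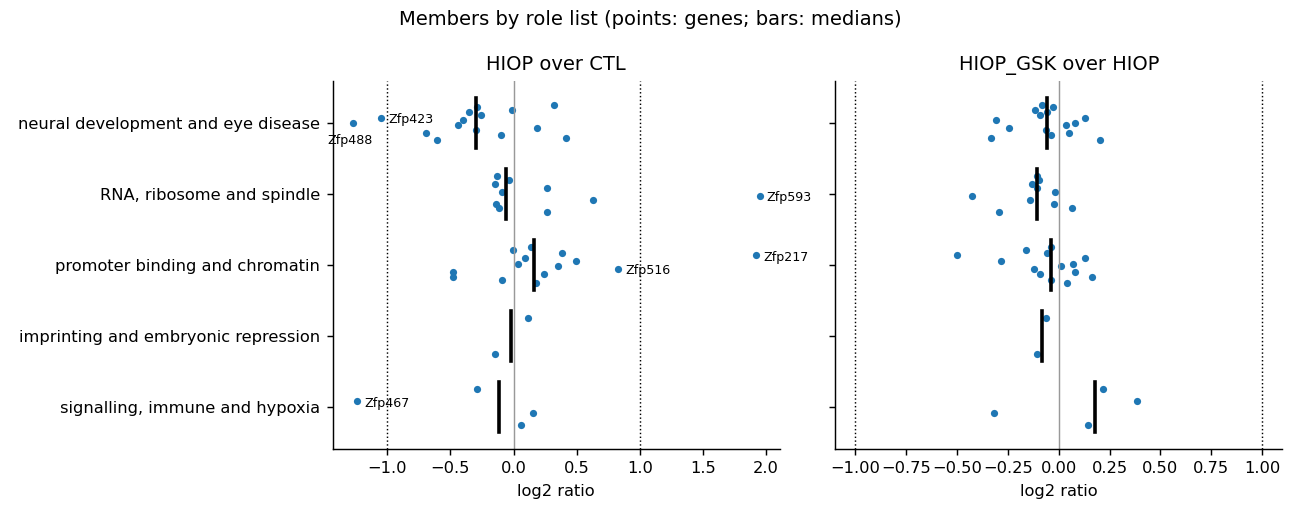
Log2 ratio of the members in 5 role lists (points are genes, black bars list medians) for HIOP over CTL (left) and HIOP_GSK over HIOP (right), with dotted lines at 2-fold and separate horizontal scales. In HIOP over CTL the neural development and eye disease list has a median of -0.30 and the promoter-binding and chromatin list one of 0.16. In HIOP_GSK over HIOP no listed member is past 2-fold, where 6.25% of all genes are.

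Partners and related families were read beside the members. Trim28, the co-repressor that KRAB zinc finger proteins recruit, had 2882, 4542 and 4130 counts, with a ratio of HIOP to CTL of 1.48 (1.41 to 1.55). Of 26 co-repressor rows, which include Setdb1, the heterochromatin proteins and the NuRD remodellers, 0 were at least 2-fold different in HIOP over CTL (17% of all genes), and the median was 0.06. In HIOP_GSK over HIOP (6.25% of all genes called) the 1 call was Uhrf1, a maintenance methylation factor also high in dividing cells, with 53, 58 and 221 counts, beside the cell cycle markers given above. The SCAN-domain family (Zscan and Zkscan, 15 rows) and the BTB-domain family (Zbtb, 39 rows) had no call in any of the 3 comparisons, in which 17%, 6.25% and 16.8% of all genes were called. The CCCH family (Zc3h, 19 rows), whose fingers mostly bind RNA, had 3 rows higher and 0 lower in HIOP over CTL (9% and 8.04% of all genes), 0 higher and 1 lower in HIOP_GSK over HIOP (4.56% and 1.69%), and 4 higher and 1 lower in HIOP_GSK over CTL (10.4% and 6.32%). In HIOP_GSK over HIOP the medians of the SCAN, BTB and CCCH families were -0.06, -0.07 and -0.06, beside -0.07 for the members. Of their rows 46.7%, 35.9% and 42.1% lay above 0, beside 33.6% of members and 49.6% of all genes.

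**Figure D5:**
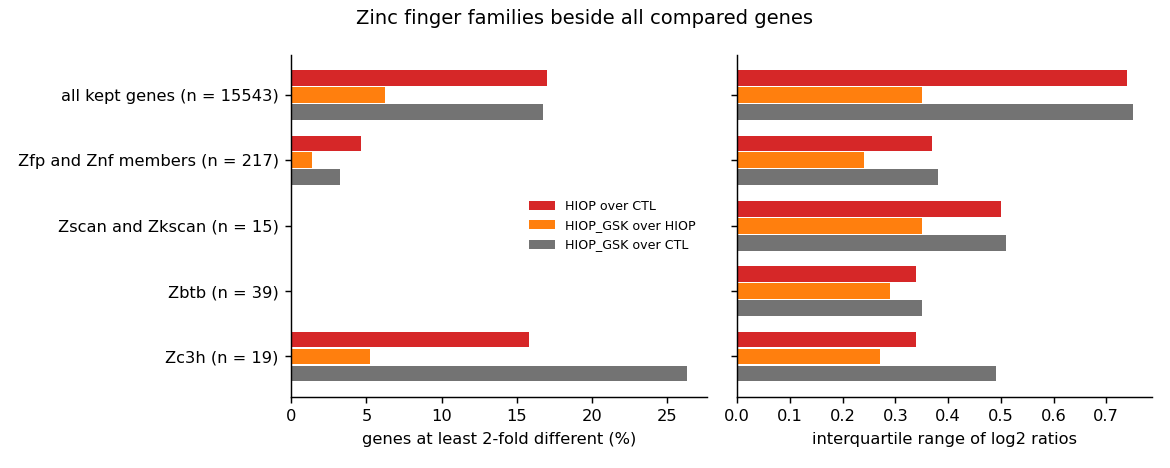
Share of genes at least 2-fold different in either direction, in percent (left), and interquartile range of log2 ratios (right), for all 15543 compared genes, the 217 members and 3 other zinc finger families, with a bar for each comparison. The members' share is 4.61% in HIOP over CTL against 17% of all genes, the Zscan and Zbtb families have no bar on the left because none of their genes was called, and small families (15 to 39 genes) move by several percent with 1 gene.

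Zinc finger genes lie in clusters that arose by duplication. In the RefSeq gene order of GRCr8, 53 members lay next to another member, in 21 runs, 5 of which held at least 3. The run of Zfp786, Zfp398, Zfp282, Zfp212 and Zfp956 had log2 ratios between -0.13 and 0.17 in HIOP over CTL, and from -0.90 (Zfp786) to -0.04 in HIOP_GSK over HIOP, so that Zfp786 stood apart from its neighbours. The run of Zfp560, Zfp26, Zfp426, Zfp266 and Zfp846 ranged from -0.32 to 0.08 in HIOP over CTL and from -0.09 to 0.09 in HIOP_GSK over HIOP. The run of Zfp28, Zfp78, Zfp583 and Zfp667 ranged from -0.29 to -0.12 and from -0.25 to -0.04, all of its members below 0 in both. Zfp516 and its neighbour Zfp236 differed, with the highest value of the pair 0.83 (Zfp516) and the lowest -0.08 (Zfp236) in HIOP over CTL.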

How the data were processed

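RNA of 3 retinal libraries, CTL, HIOP and HIOP_GSK, was analysed. Each deposited table gives a whole-number count, not normalized, and a TPM value for 32883 Ensembl genes with symbols. The genome build Rnor_6.0, RSEM 1.3.1 and STAR 2.5.4b are listed, without roles, per the submitters' processing notes. The labels' protocols describe ribosomal RNA removal and a directional kit, and the strand setting of the counting is not given in the sources used here.

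Counts were scaled with TMM factors of edgeR 4.0.16 (R 4.3.3) over the whole table, which were 1.000, 0.994 and 1.006. The 15543 genes that reached 1 CPM in any library were compared. Log2 ratios used a prior count of 2, and a call means at least 2-fold on that scale. Ratios of named genes carry no prior and have a 95% Clopper-Pearson interval (exact, scipy 1.17.1). It covers counting error only, as reads lacking molecular identifiers may be copies of one molecule, and with 1 library per group there is no test. The calculations were tested on simulated data.

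The deposited TPM values, compared with a pseudocount of 0.5, served as an alternative, as did DESeq2 1.42.0 size factors, library totals, other filters, prior counts of 0.5 and 10, and a limit of 1.5-fold. Leaving out a library was not possible. Named genes are, per comparison and direction, up to 10 members ranked by the interval bound closest to 1, the 10 with the highest mean TPM, the members of role lists, and 3 rows on each side of the limit. The 5 Znf genes, neighbours and genes on which counts and TPM disagree were also named, chosen after their values were seen. The members and all lists were chosen with earlier results of these data known. RefSeq tables of GRCr8 gave gene order and start-site windows, and 1 window, the first listed, was used for a gene with several. Protein sequences of the members were not analysed here.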

Additional observations from a re-analysis of the deposited data

How the results depend on the processing

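No paired analysis was possible because each group holds 1 library. Scaling by library totals, by DESeq2 size factors or by totals without mitochondrial and the 20 most abundant genes kept every count of called members within 1.5 times its value, and the members' medians stayed below 0 in each comparison. Of 2019 values of 76 named members under the alternatives, 66 differed beyond their counting interval, all 66 with the deposited TPM, and no called value changed sign; for these 66 the cause was not tested. With TPM the members' median was -0.15 for HIOP over CTL and -0.20 for HIOP_GSK over CTL (all genes -0.08 and -0.05), and 0 members were higher and 0 lower in HIOP_GSK over HIOP. At a limit of 1.5-fold, 11 members were higher and 13 lower in HIOP over CTL (16.1% and 17.6% of all genes), 6 higher and 4 lower in HIOP_GSK over HIOP (9.68% and 4.82%), and 10 higher and 15 lower in HIOP_GSK over CTL (17.6% and 16.6%). A filter at 5 CPM, which leaves 12616 genes, left 3 lower in HIOP over CTL (773 of all genes). It left 0 higher and 0 lower in HIOP_GSK over HIOP (341 and 113 of all genes) and 1 lower in HIOP_GSK over CTL (594). With that restriction, added after seeing the data, 6 were called in either direction for HIOP over CTL (14% of all genes) and 0 for HIOP_GSK over HIOP (3.6%). A prior count of 10 left 1 higher and 0 lower in HIOP_GSK over HIOP, no filter gave 2 lower there, and a mean of at least 1 CPM left 1 lower in HIOP_GSK over CTL. Shares of all genes under these last settings and under TPM are not given here, so those counts are no comparison with other genes. Depth limits genes of few counts, and 193 of 217 members had at least 100 counts in every library.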

Other observations

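The 5 members named Znf differed from each other in level. Znf740 had 1792, 1865 and 1733 counts in CTL, HIOP and HIOP_GSK, Znf768 had 543, 610 and 506, and Znf48 had 401, 440 and 401. Znf660 had 91, 117 and 73 counts, and Znf750 had 29, 4 and 6. Apart from Znf750, none of them was 2-fold different in any of the 3 comparisons, in which 17%, 6.25% and 16.8% of all genes were.

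Counts and TPM told different stories for a few members. The log2 ratios on the 2 scales differed by more than 0.5 for 6 of 217 members in HIOP over CTL, 6 in HIOP_GSK over HIOP and 4 in HIOP_GSK over CTL. Zfp37 had 90, 96 and 77 counts but 13.4, 8.36 and 15.1 TPM, and Zfp580 had 152, 156 and 132 counts but 14.5, 8.97 and 16.7 TPM, lowest in HIOP on that scale only. Zfp605 had 69, 64 and 49 counts with 0.64, 0.57 and 0.26 TPM. The Zfp9 row with 225, 146 and 140 counts had 6.34, 2.49 and 3.43 TPM and passed 2-fold in HIOP over CTL on the TPM scale, whereas the other Zfp9 row had 188, 193 and 144 counts.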
